A study of Mus musculus with 40 samples.

Results

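Skeletal muscle genes in CT26 tumors are the subject here: Myh1, Myh2 and Myh4 (heavy chains of fast myosin), Acta1 (the actin of skeletal muscle thin filaments), Tnnt3 (fast troponin T), Mylpf (the regulatory light chain of fast myosin), Actn3 (the alpha-actinin of fast fibre Z-discs), Ckm (muscle creatine kinase), Pvalb (parvalbumin, a calcium buffer of fast fibres) and Atp2a1 (the calcium pump of the fast sarcoplasmic reticulum). These 10 genes are 10 rows of a table of 54087, matched by symbol. They were chosen by a measured value: Myh1 was called in one alternative test of anti-PD-1 against isotype control, by DESeq2, which called 0.00320% of the genes it tested there, and the others are fast muscle genes listed with it. The anti-PD-1 against isotype values below are therefore a description, and no test is given for them.

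BALB/c mice carried subcutaneous CT26 tumors, grown from 1000000 cells of a transplantable colon carcinoma line, and RNA was taken from fragments of the tumors collected on day 13. Each mouse received monoclonal antibodies on days 6, 9 and 12, and each of the 8 groups held 5 mice. The groups were mIgG2a isotype control (motavizumab), anti-PD-1 FcS (an Fc-silent format), anti-TGF-β (clone 1D11), anti-GARP:TGF-β1 in its WT format and in its FcD format (clone 58A2 as mIgG2a with a working or an Fc-dead constant region), and each of the last 3 antibodies given together with anti-PD-1 FcS. All mice thus carried the same tumor line, and the sources used here give no age or sex for single mice, only a range of weeks of age for all tumor-bearing mice in the methods of the study. A tumor fragment is a bulk sample of carcinoma cells, leukocytes and whatever host tissue was taken with it, so fewer cells of a type and less RNA per cell cannot be told apart.

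Skeletal muscle contracts when calcium released from the sarcoplasmic reticulum binds troponin on the thin filament and lets myosin heads pull on actin. Adult mouse fibres are grouped by the myosin heavy chain they carry: Myh4 marks the fastest, glycolytic fibres, Myh1 and Myh2 mark faster and slower intermediate types, and Myh7 marks slow fibres. A subcutaneous tumor lies close to skin, fat and a sheet of striated muscle under the skin.

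The 40 tumors are called by the number in their label, 41 to 80. Total counts ranged from 11931730 to 20680548 per tumor. Libraries 41 to 60 held Y-linked transcripts (Ddx3y, 6.86 to 33.4 CPM) and libraries 61 to 80 had 0 counts of Ddx3y, with Xist at 62.7 to 791 CPM, and each group had 2 or 3 tumors on each side. The epithelial keratin gene Krt8 stood at 0 to 0.742 CPM in libraries 41 to 60 and at 1.74 to 172 CPM in libraries 61 to 80, so it does not mark this carcinoma line in all tumors. The leukocyte gene Ptprc was read in all of them, at 59.9 CPM or more. CPM here is counts per 1000000 of the TMM-scaled counts on genes that passed the filter on low counts, and 3 counts, the floor used for a gene at 0, equal 0.215 CPM in a library of median size. Over the 80 pairs of mice that shared a group, the chi-square of their counts was at least 5.44 times its degrees of freedom, so every pair differed by more than sampling noise. The labels name separate mice, and p-values measure the spread between them.

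Among the 10 genes, Myh2, Myh1 and Myh4 lie side by side in this order on chromosome 11 (GRCm38, plus strand), at 67171027 to 67197517, 67200052 to 67224575 and 67238029 to 67260446. The gene of embryonic myosin, Myh3, lies before them and the perinatal Myh8 after them. Ckm (19404776 to 19422841, plus), Atp2a1 (126445858 to 126463108, minus), Mylpf (127208890 to 127214298, plus) and Tnnt3 (142498836 to 142516009, plus) are on chromosome 7, while Acta1 is on chromosome 8 (123891769 to 123894751, minus), Pvalb on chromosome 15 (78191114 to 78206400, minus) and Actn3 on chromosome 19 (4861216 to 4877909, minus). The heavy chains are near copies. Of the 100-base stretches in the longest coding transcript, 9.73% for Myh1, 9.17% for Myh2 and 3.85% for Myh4 also occur in another gene of the cluster, and 0% for the other 7 genes. The counting of reads that fit several genes is not given in the sources used here, so small counts within the heavy chain family are uncertain.

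The promoters of the 3 heavy chains and of Acta1 are shown because these genes hold the counts that separate the tumors. The windows from 250 bases before to 50 after the RefSeq start (GRCm38.p6) are printed 5′ to 3′ on the strand of the gene, and capitals mark TATAAA, the MEF2 site and the CArG box, the last 2 being binding motifs of muscle transcription factors, searched on both strands.
Myh4, chr11:67237562-67237861, plus strand: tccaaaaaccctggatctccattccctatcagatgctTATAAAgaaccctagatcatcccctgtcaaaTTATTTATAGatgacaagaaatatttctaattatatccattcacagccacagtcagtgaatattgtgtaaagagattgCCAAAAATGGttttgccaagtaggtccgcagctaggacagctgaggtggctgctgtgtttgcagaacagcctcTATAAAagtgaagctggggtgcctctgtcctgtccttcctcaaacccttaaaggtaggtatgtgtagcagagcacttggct
Myh1, chr11:67199852-67200151, plus strand: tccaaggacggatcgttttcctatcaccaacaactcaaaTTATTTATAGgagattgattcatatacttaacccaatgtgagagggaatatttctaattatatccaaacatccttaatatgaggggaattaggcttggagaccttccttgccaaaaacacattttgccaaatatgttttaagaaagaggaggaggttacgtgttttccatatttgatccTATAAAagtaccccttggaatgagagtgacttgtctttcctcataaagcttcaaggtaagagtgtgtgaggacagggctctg
Myh2, chr11:67170777-67171076, plus strand: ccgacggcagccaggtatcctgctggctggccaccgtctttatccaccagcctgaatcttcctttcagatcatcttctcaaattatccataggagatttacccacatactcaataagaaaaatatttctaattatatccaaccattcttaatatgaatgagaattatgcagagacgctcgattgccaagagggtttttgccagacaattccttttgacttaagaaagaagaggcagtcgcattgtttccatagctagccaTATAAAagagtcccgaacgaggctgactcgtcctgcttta
Acta1, chr8:123894726-123895025, minus strand: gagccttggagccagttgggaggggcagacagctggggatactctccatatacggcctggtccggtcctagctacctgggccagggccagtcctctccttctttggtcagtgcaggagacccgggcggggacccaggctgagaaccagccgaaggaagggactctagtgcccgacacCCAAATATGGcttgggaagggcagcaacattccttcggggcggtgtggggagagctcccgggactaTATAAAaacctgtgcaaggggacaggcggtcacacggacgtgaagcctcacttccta
The same 10-base MEF2 site stands in the promoters of Myh1 and Myh4. RefSeq windows were matched for 8 of the 10 genes, with 2 windows for Pvalb and none for Tnnt3 and Actn3. Of these 9 windows, 3 held a MEF2 site (Myh1, Myh4 and 1 of the Pvalb windows), against 3.19% of all 32851 mouse promoter windows, and 2 held a CArG box (Acta1 and Myh4), against 1.63%. TATAAA was found in 4 of 9 windows and in 13.6% of all windows. The E-box CANNTG was found in 6 of 9 and in 72.3% of all, and CATTCC in 3 of 9 and in 14.7% of all. A match describes the letters in this window only.

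The levels fell into 2 kinds. Mylpf, Ckm and Actn3 were counted in all 40 tumors, and Atp2a1, Acta1 and Tnnt3 in 39, 38 and 36 of them. Myh1, Pvalb, Myh4 and Myh2 were counted in 10, 8, 8 and 3 tumors and were at 0 in the rest, and 0 counts in a library allow up to 3, or 0.215 CPM. Per kilobase of exon, the scale on which genes can be compared, the median level over 40 tumors was highest for Mylpf (0.969 CPM per kb), followed by Ckm (0.252), Actn3 (0.175), Acta1 (0.171), Tnnt3 (0.143) and Atp2a1 (0.0637). The mean gave another order, with Mylpf at 1.49 and Acta1 at 1.44 CPM per kb, then Ckm (0.483), Tnnt3 (0.435), Actn3 (0.236), Atp2a1 (0.232) and Myh4 (0.192). A few tumors held most of the counts of Acta1 and Myh4.

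One tumor stood far above the rest for every member. In tumor 52 (anti-PD-1, replicate 2) there were 917 counts of Acta1, 546 of Myh4, 331 of Ckm, 290 of Mylpf, 260 of Atp2a1, 241 of Myh1, 223 of Tnnt3, 116 of Actn3, 56 of Pvalb and 28 of Myh2. These were 3008 counts in all, or 0.0206% of the counts of the library (95% exact binomial interval 0.0199 to 0.0213%, which covers counting error only). Tumor 52 alone held 82.9% of all Myh4 counts of the series, 81.7% of Myh1, 80.0% of Pvalb, 73.7% of Myh2 and 72.8% of Acta1, but 32.2% of Mylpf and 29.7% of Actn3. Its level exceeded that of the next tumor by 12.5 times for Myh1, 11.7 times for Myh4 and 11.1 times for Acta1, and least for Myh2 (3.69 times).

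**Figure D1:**
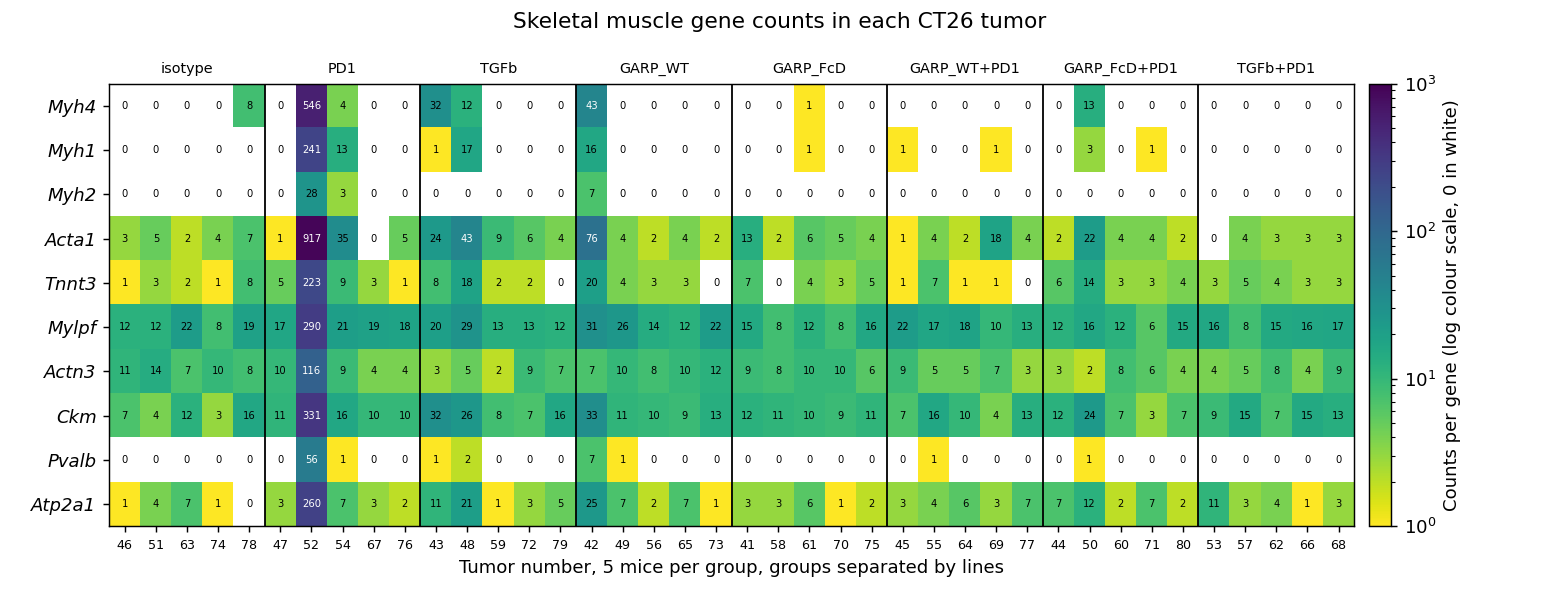
Counts of the 10 genes (rows) in the 40 tumors (columns, 5 mice per group), printed in each cell and coloured on a log scale, with 0 in white. Tumor 52 of the anti-PD-1 group is darkest in every row, from 28 counts of Myh2 to 917 of Acta1, and the myosin heavy chain rows are empty in most tumors.

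Beyond tumor 52, 5 tumors held at least 10 heavy chain counts (Myh1, Myh2 and Myh4 together). The summed CPM of the 10 genes was 19.8 in tumor 42 (anti-GARP:TGF-β1 WT), 13.5 in tumor 48 and 10.8 in tumor 43 (both anti-TGF-β), 8.42 in tumor 54 (anti-PD-1) and 8.07 in tumor 50 (anti-GARP:TGF-β1 FcD with anti-PD-1), against 207 in tumor 52. The other 34 tumors lay between 2.02 and 4.57 CPM. The 3 highest were thus tumors 52, 42 and 48, and the 3 lowest were tumor 46 (isotype, 2.16), tumor 74 (isotype, 2.12) and tumor 71 (anti-GARP:TGF-β1 FcD with anti-PD-1, 2.02). The 6 high tumors belonged to 4 of the 8 groups, and none belonged to the isotype, anti-GARP:TGF-β1 FcD, anti-GARP:TGF-β1 WT with anti-PD-1, or anti-TGF-β with anti-PD-1 group.

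The heavy chains did not keep one ratio across these tumors. Myh4 made up 67.0% of the 815 heavy chain counts in tumor 52 (95% exact binomial interval 63.6 to 70.2%) and 65.2% of 66 in tumor 42 (52.4 to 76.5%). It was 97.0% of 33 counts in tumor 43 (84.2 to 99.9%), where Myh1 had 1 count and Myh2 none. In tumor 54, by contrast, Myh4 was 20% of 20 counts (5.73 to 43.7%) and Myh1 was 65.0% (40.8 to 84.6%). The Myh4 intervals of tumors 43 and 54 do not overlap, nor do those of tumors 52 and 54. These intervals cover the counting of reads in single tumor fragments, and Myh2, the slowest of the 3, was counted in tumors 52 (28), 42 (7) and 54 (3) only.

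The tumors without heavy chain counts had another makeup. In the 29 tumors with no Myh1, Myh2 or Myh4 count, picked for that absence, Mylpf stood at 8 to 26 counts, Ckm at 3 to 16, Actn3 at 2 to 14 and Atp2a1 at 1 to 11. Pooled, Mylpf made up 34.6% of their 1231 member counts (95% exact binomial interval 31.9 to 37.3%), Ckm 24.2% and Actn3 17.0%. Because the heavy chain share of 0 was fixed by the way these tumors were picked, tumor 52 is set beside them over the other 7 genes, of which it had 2193 counts. There Acta1 made up 41.8% (8.61% in the pooled tumors), Ckm 15.1%, Mylpf 13.2%, Atp2a1 11.9% (8.61%), Tnnt3 10.2% (6.82%) and Actn3 5.29%. Of all 3008 member counts of tumor 52, Acta1 was 30.5% and Myh4 18.2%.

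**Figure D2:**
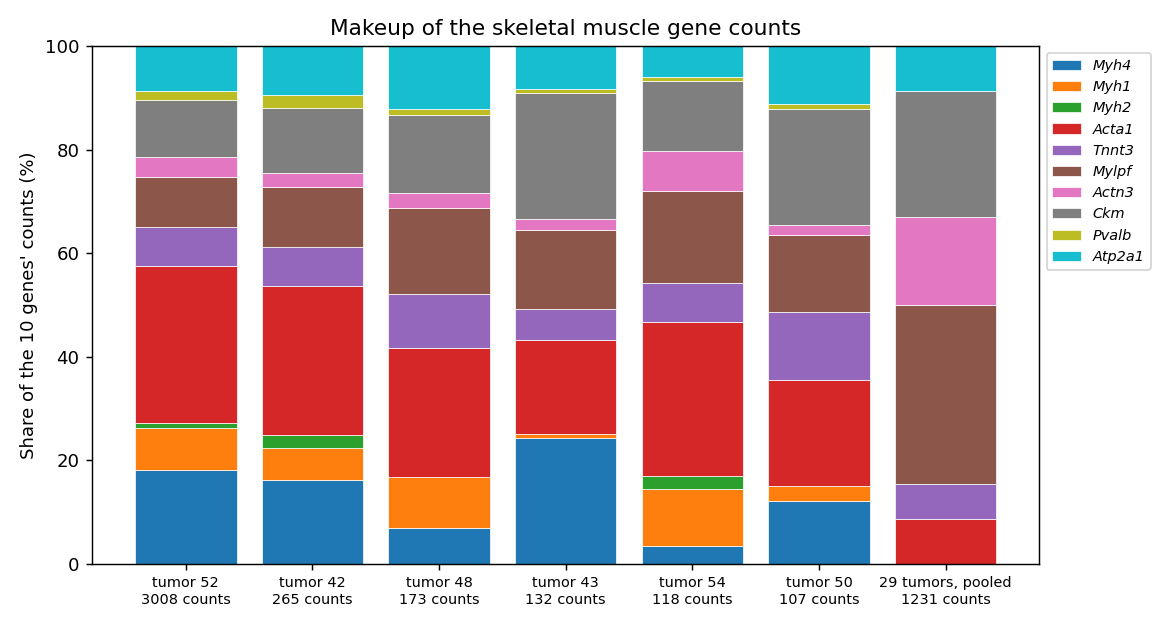
Stacked bars give the share of each gene (%) in the summed counts of the 10 genes, for the 6 tumors with at least 10 heavy chain counts and for the 29 tumors without any, pooled. Mylpf, Ckm and Actn3 fill most of the pooled bar (34.6, 24.2 and 17.0%), whereas Acta1 is 30.5% of tumor 52.

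Actn3 went its own way. Over the 40 tumors its Spearman rho with the other 9 genes ran from -0.17 (Ckm) to 0.25 (Myh2), given as a description because all values share the same libraries and depths and most points are small counts. Without tumor 52 it ran from -0.27 (Ckm) to 0.11 (Myh2). The pairs with the highest rho were Myh1 with Myh4 (0.79), Myh4 with Pvalb (0.77) and Myh1 with Pvalb (0.70). The median over all 45 pairs was 0.45, and 0.37 over the 39 tumors without tumor 52. After tumor 52, Actn3 was highest in tumor 51, an isotype mouse, at 14 counts, where Acta1 had 5 counts and Myh1, Myh2 and Myh4 had none.

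Ranked by likeness, the 10 genes outside the list with the highest mean Spearman rho to the members over 40 tumors were Myl1 (0.37), Cd276 (0.37), Fam172a (0.36), Tnni2 (0.35), Nkiras2 (0.34), Mybpc2 (0.34), Des (0.34), RP23-428I9.3 (0.32), RP23-30A18.5 (0.32) and Ppp1r3f (0.31). Myl1 encodes the alkali light chain of fast myosin, Tnni2 fast troponin I, Mybpc2 fast myosin-binding protein C and Des the intermediate filament protein desmin. The mean rho of each was lower without tumor 52, by up to 0.06 (0.31 for Myl1 and 0.28 for Des).

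Other muscle genes followed the same tumor. Of 38 further genes of fast or shared striated muscle, none of which was at 0 throughout, 35 were highest in tumor 52, and for 24 of them tumor 52 had at least 10 counts and more than 2 times the CPM of the next tumor. Myl1 had 231 counts there and at most 31 elsewhere, and Mybpc2 had 115 and at most 16. The 3 that were not highest there were Eno3, the muscle-type enolase, at 171 CPM in tumor 52 and a median of 165 over all tumors, Cox6a2, a subunit of cytochrome c oxidase (2.55 and 3.19 CPM), and Fbxo32, a ubiquitin ligase. Tnni2, among the most highly read of this list, stood at 8.90 CPM in tumor 52 and at 3.87 CPM in the next, tumor 66 (anti-TGF-β with anti-PD-1), which had no heavy chain count.

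The slow-fibre genes summed to 5.24 CPM in tumor 52 (median of the others 3.50, highest 5.54) and the heart genes to 6.07 CPM (3.40 and 6.10), near the upper end in both cases but not above it. Over the 40 tumors the slow-fibre sum had a Spearman rho of 0.47 with the member sum, given as a description. Only 2 of 9 slow-fibre genes were highest in tumor 52, and the defining Myh7, Myl2 and Myl3 were at 0 there. Tnnc1, Tnnt1 and Tnni1, the slow troponins, had 15, 17 and 19 counts in tumor 52, against up to 44, 38 and 19 in other tumors. Of 6 heart genes 1 was highest there, Myl4 with 47 counts against up to 35 elsewhere, with Tnnt2 at 30 and Tnni3 at 11 counts. Myh6 and Nppa were at 0 in tumor 52, and Myl7 in all 40 tumors.

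Of 5 genes of newly formed muscle in the table, 3 were highest in tumor 52. Myog, a transcription factor of differentiating muscle cells, had 21 counts there and 0 in the other 39 tumors, Myh8 had 19 and 0, and Chrng, a fetal subunit of the acetylcholine receptor, had 8 and at most 2. Myh8 and Chrng are named after their values were seen, and Myh8 shares stretches with Myh1, Myh2 and Myh4. Myh3 and Chrna1 of the same list were read in most tumors, with 12 and 28 counts in tumor 52 and up to 14 and 62 elsewhere. Among the myogenic factors, Myod1 had 1 count and Myf6 had 2 in tumor 52, while Pax7 and Myf5, which mark muscle stem cells, were at 0 in all tumors. Cdh15, the most highly read gene of this list, was counted in 17 tumors, with 1 count in tumor 52 and at most 6 elsewhere.

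Genes of other host tissues were measured beside the members. The 9 adipocyte genes summed to 34.7 CPM in tumor 52, against 33.0 to 1236 in the other 39 tumors. They summed to 1037 in tumor 48 and 308 in tumor 42, but to 112, 129 and 68.1 in tumors 43, 50 and 54. Over 40 tumors the adipocyte sum had a Spearman rho of -0.11 with the member sum, given as a description. Fabp4, Cfd and Adipoq, the most highly read of them, ranked 38th, 40th and 39th of 40 in tumor 52. The 10 keratinocyte genes summed to 31.0 CPM in tumor 52, against a median of 5.04 and a highest value of 33.8 elsewhere (tumor 71), and 4 of the 10 were highest in tumor 52. The 2 tumors were unlike in other epithelial genes. Tumor 71 had the highest Krt8 and Epcam of all tumors (172 and 39.1 CPM), against 0.207 and 0.276 CPM in tumor 52. Krt14, a keratin of basal epidermis, had 282 counts in tumor 52 and at most 117 elsewhere, and Krt5 had 78 and at most 264, with Krt10 at 35 counts and the late epidermal genes Lor and Flg at 0 in all tumors.

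Among the 5 next tumors the keratinocyte genes stood at 3.43 to 5.43 CPM, near the median of all. Of the 8 smooth muscle genes only Des was highest in tumor 52 (499 counts, at most 117 elsewhere), while Acta2 (169) and Tagln (61) ranked 24th and 27th. None of 5 tendon genes (Thbs4, Fmod and Comp led) was highest there, nor was any of 7 carcinoma and leukocyte genes, although Ptprc ranked 3rd and Cd8a 5th. Whether any of these tissues has a part in the member values was not tested.

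**Figure D3:**
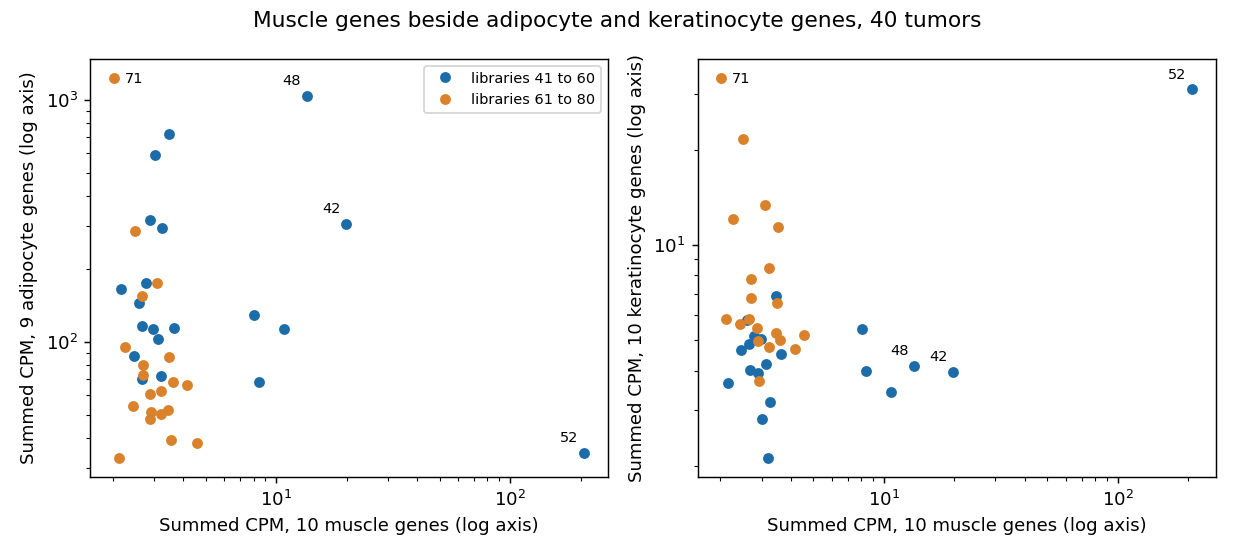
Each point is 1 of 40 tumors, with the summed CPM of the 10 muscle genes (log axis) against that of 9 adipocyte genes (left, log axis) or 10 keratinocyte genes (right, log axis), coloured by library number. Tumor 52 has 207 CPM of muscle genes beside 34.7 CPM of adipocyte and 31.0 CPM of keratinocyte genes. Tumors 42 and 48 have 308 and 1037 CPM of adipocyte genes, and tumors 43, 50 and 54 have 112, 129 and 68.1 CPM.

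By treatment group, the summed CPM of the members was 45.0 ± 90.9 with anti-PD-1, 6.58 ± 7.43 with anti-GARP:TGF-β1 WT, 6.46 ± 5.26 with anti-TGF-β, 3.65 ± 2.505 with anti-GARP:TGF-β1 FcD and anti-PD-1, 3.13 ± 0.324 with anti-TGF-β and anti-PD-1, 3.12 ± 1.03 with isotype control, 3.04 ± 0.533 with anti-GARP:TGF-β1 FcD and 2.87 ± 0.329 with anti-PD-1 plus anti-GARP:TGF-β1 WT (mean ± SD, n = 5 each). Each group differed from its neighbour in this order by less than the larger of their 2 SDs. The medians lay much closer, from 2.70 (anti-TGF-β) to 3.48 (anti-GARP:TGF-β1 WT), with anti-PD-1 at 3.47 and isotype at 3.14. Without tumor 52 the anti-PD-1 mean was 4.41 ± 2.68 (n = 4), and without tumor 42 the anti-GARP:TGF-β1 WT mean was 3.27 (n = 4).

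**Figure D4:**
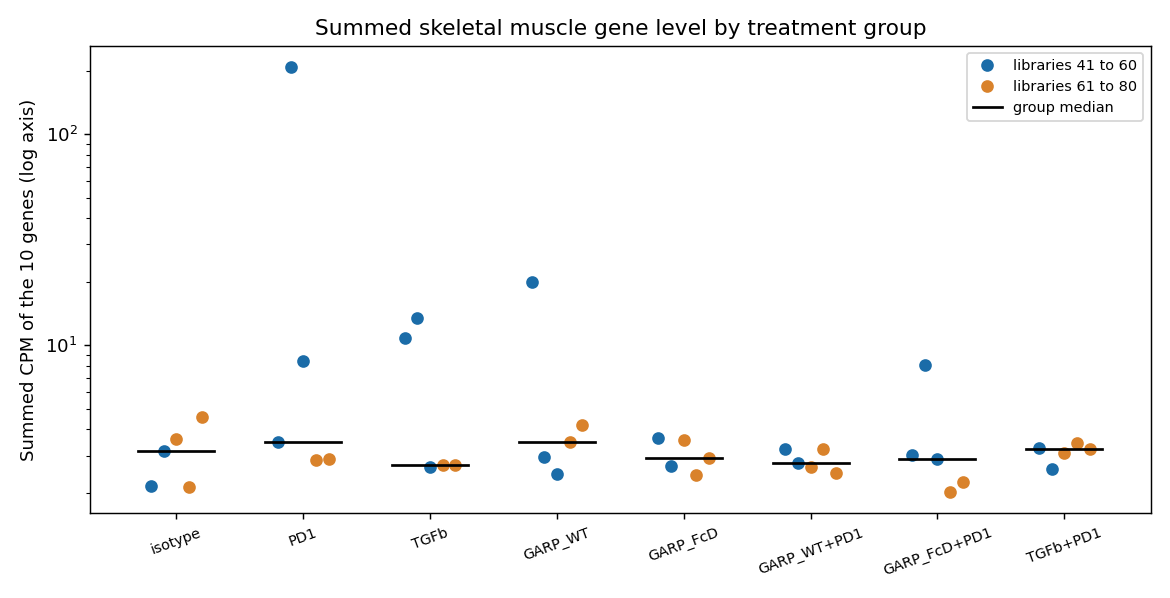
Summed CPM of the 10 genes on a log axis for each of 5 tumors per group, coloured by library number, with a line at the group median. Medians lie between 2.70 and 3.48 CPM, and the 6 tumors at 8.07 CPM or more are all from libraries 41 to 60.

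Acta1 had the highest mean CPM of the members and is followed here group by group. It had 3, 5, 2, 4 and 7 counts in the isotype mice (46, 51, 63, 74, 78) and 1, 917, 35, 0 and 5 in the anti-PD-1 mice (47, 52, 54, 67, 76), which include both the lowest and the highest tumor of the 10. With anti-TGF-β it had 24, 43, 9, 6 and 4 counts (43, 48, 59, 72, 79), and with anti-GARP:TGF-β1 WT 76, 4, 2, 4 and 2 (42, 49, 56, 65, 73). Only 1 tumor of the anti-GARP:TGF-β1 WT group and 3 of the anti-TGF-β group exceeded the isotype mice.

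With anti-GARP:TGF-β1 FcD alone Acta1 had 13, 2, 6, 5 and 4 counts (41, 58, 61, 70, 75). In the combinations with anti-PD-1 it had 1, 4, 2, 18 and 4 with anti-GARP:TGF-β1 WT (45, 55, 64, 69, 77), 2, 22, 4, 4 and 2 with FcD (44, 50, 60, 71, 80), and 0, 4, 3, 3 and 3 with anti-TGF-β (53, 57, 62, 66, 68). All groups overlapped for Acta1.

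Myh4 was read in 8 tumors: 546 counts in tumor 52 and 4 in tumor 54 (anti-PD-1), 43 in tumor 42 (anti-GARP:TGF-β1 WT), 32 in tumor 43 and 12 in tumor 48 (anti-TGF-β), 13 in tumor 50 (anti-GARP:TGF-β1 FcD with anti-PD-1), 8 in tumor 78 (isotype) and 1 in tumor 61 (anti-GARP:TGF-β1 FcD). Myh1 was read in 10 tumors, with 241 counts in tumor 52, 17 in tumor 48, 16 in tumor 42, 13 in tumor 54, 3 in tumor 50 and 1 count in each of tumors 43, 45, 61, 69 and 71. All 5 isotype mice were at 0 for Myh1, Myh2 and Pvalb. Tumor 78, the only isotype tumor with a heavy chain count, had 0 counts of Atp2a1.

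In the comparison the choice rests on, anti-PD-1 against isotype, the totals over 5 mice were 254 against 0 counts for Myh1, at least 86.7-fold higher when 3 counts are set for the isotype group, and 958 against 21 for Acta1, a ratio of CPM of 46.7. The ratio for Myh4 was 70.4, and Pvalb and Myh2 were at least 19.5-fold and 10.6-fold higher with 3 counts set for isotype. The ratios for Atp2a1, Tnnt3, Ckm, Mylpf and Actn3 were 21.7, 16.4, 9.21, 5.12 and 2.93, lowest for Ckm, Mylpf and Actn3, which were counted in every tumor. The fitted log2 fold change of Acta1 was 5.44 (SE 1.33) and fell to 1.28 without tumor 52. In the anti-PD-1 group 2 of 5 mice, tumors 52 and 54, held all of the Myh1 counts, 241 and 13. edgeR called 0% of all genes in this comparison.

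Only 6 of the 10 members passed the filter on low counts and could be tested (Acta1, Actn3, Atp2a1, Ckm, Myh4 and Mylpf). The filter asks for 0.713 CPM of the raw total in at least 5 tumors, and Myh4, just inside, reached that in 5 tumors, whereas Myh1 and Tnnt3, just outside, reached it in 4 and Myh2 and Pvalb in 1. Tnnt3, counted in 36 tumors, thus failed, while Myh4, counted in 8, passed through the tumors where it was high.

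Against isotype control, the other 6 treated groups differed in none of the 6 tested members by edgeR's quasi-likelihood test at an adjusted p under 0.05, and the test called 0% of all 14760 genes in each of these comparisons. These comparisons share the isotype mice with the choice of the members. No member reached an unadjusted p under 0.05 either, against a background of 2.32% of all genes for anti-TGF-β, 0.969% for anti-GARP:TGF-β1 WT, 0.474% for anti-GARP:TGF-β1 FcD, and 20.7%, 16.6% and 20.1% for these antibodies with anti-PD-1 (WT, FcD and anti-TGF-β). Nothing is read from these counts, because the isotype values entered the choice. They also depend on tumor 52, which enters the spread of every test. Without it and without the filter, in a run chosen after seeing the data, 4 of 10 members had an unadjusted p under 0.05 with anti-TGF-β (Ckm, Myh1 and Atp2a1 higher, Actn3 lower, 2.81% of all genes), 3 with anti-GARP:TGF-β1 WT (Pvalb, Myh1 and Atp2a1 higher, 2.04%) and 0 with FcD (1.71%). In the combinations it was 1 with WT (Actn3 lower, 12.9%), 1 with FcD (Actn3 lower, 11.6%) and 0 with anti-TGF-β (11.8%), and no member was called after adjustment by edgeR. All 5 isotype mice were at 0 for Myh1 and Pvalb, so that these members could only be higher. For Acta1 the log2 fold change was 2.11 with anti-TGF-β and 2.07 with anti-GARP:TGF-β1 WT, each with an edgeR adjusted p of 1.00, and it turned to -0.59 for the latter without tumor 42.

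Adding an antibody to anti-PD-1 was compared with anti-PD-1 alone, whose mice were used in the choice. Because the members were chosen for a high value in these mice, a lower value elsewhere was set by the choice, and the values are a description. Here edgeR called 0%, 0% and 0.00678% of all genes (WT, FcD and anti-TGF-β) and none of the members. Without tumor 52 the log2 fold change of Acta1 went from -5.09 to -0.93 with anti-GARP:TGF-β1 WT, from -4.71 to -0.55 with FcD and from -6.07 to -1.92 with anti-TGF-β. With tumor 53 (anti-TGF-β with anti-PD-1, 0 counts of Acta1) left out in place of it, edgeR called all 8 members that then passed the filter, and 11.6% of all genes, and nothing is read from that count either.

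**Figure D5:**
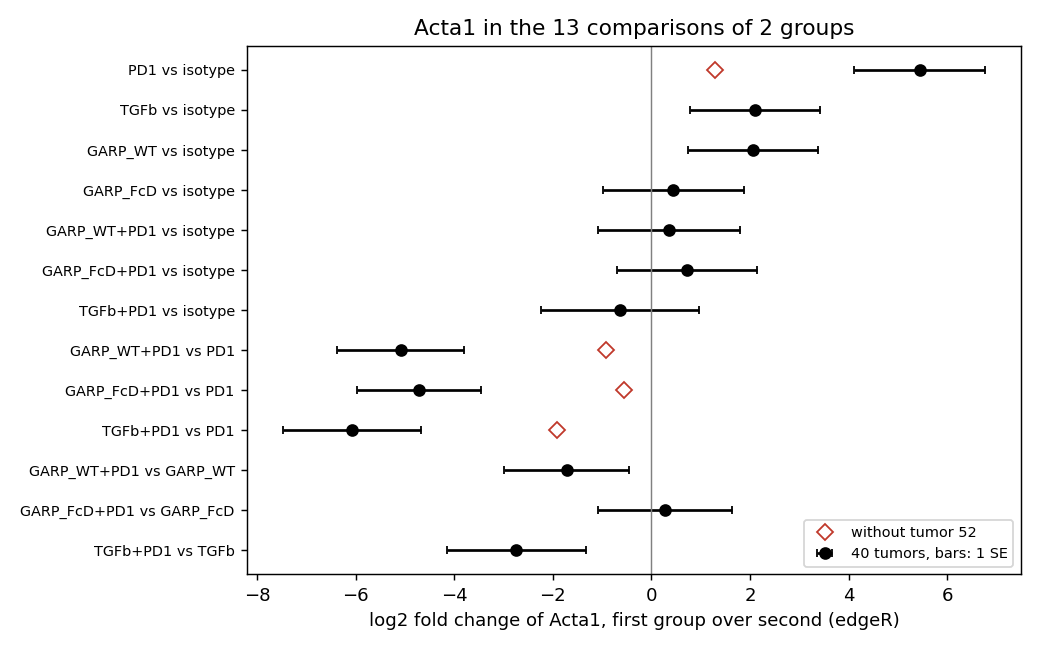
Log2 fold change of Acta1 from edgeR (horizontal axis) in the 13 comparisons of 2 groups of 5 mice, filled points with bars of 1 SE, and open diamonds for the fit without tumor 52 where it belongs to a compared group. The 4 comparisons with the anti-PD-1 group move from 5.44, -5.09, -4.71 and -6.07 to 1.28, -0.93, -0.55 and -1.92.

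The comparisons of each combination with the same antibody alone set no isotype or anti-PD-1 mice side by side, but all 8 groups share one estimate of the spread in the fit, tumor 52 included. Myh4 had 43 counts in the anti-GARP:TGF-β1 WT group, all in tumor 42, and 0 with anti-PD-1 added. It had 44 counts in 2 anti-TGF-β mice and 0 with anti-PD-1 added, and 1 count in the FcD group against 13 in its combination. Both falls to 0 amount to at least a 14.98-fold and a 14.5-fold difference of the group totals, when 3 counts are set for the group at 0, and each rests on 1 or 2 of 5 mice.

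None of the 6 tested members was called by edgeR in these 3 comparisons (0% of all genes called in each) or reached an unadjusted p under 0.05, where 29.5% (anti-GARP:TGF-β1 WT), 20.9% (FcD) and 9.84% (anti-TGF-β) of all genes did. With single mice of the compared groups left out, 0 to 1 members reached an unadjusted p under 0.05 with WT, 0 with FcD and 0 to 2 with anti-TGF-β. The share of all genes in those runs is not given here, so nothing is read from these ranges. Without tumor 52 and without the filter, 2 of 10 did with WT (Myh4 and Pvalb lower, 17.0% of all genes), 1 with FcD (Actn3 lower, 13.8%) and 3 with anti-TGF-β (Acta1, Myh1 and Myh4 lower, 6.44%), none of them called after adjustment by edgeR. The lowest adjusted p of a member was 0.180, for Myh4 with anti-GARP:TGF-β1 WT. The log2 fold change of Acta1 was -1.72 (SE 1.27), 0.28 (SE 1.36) and -2.74 (SE 1.41) in the same order, with edgeR adjusted p of 0.344, 0.915 and 0.500. The median log2 fold change of the tested members was -0.87, 0.20 and -0.77, beside 0.02, -0.01 and -0.02 over all genes.

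Over the 6 groups that played no part in the choice, the edgeR test of any difference called none of the 6 tested members and 0% of all genes, and no member had an unadjusted p under 0.05, which 31.7% of all genes had. The lowest adjusted p among members was 0.237 (Myh4). Of the 38 further muscle genes 13 could be tested, and edgeR called none of them in this test. It called none of them either in the comparisons of a combination with the same antibody alone. In each of these, 0% of all genes were called. The test of whether anti-PD-1 changed the members unequally across the 3 antibodies called none either (0% of all genes), again with no member under an unadjusted p of 0.05 and 20.7% of all genes under it, and the lowest adjusted p was 0.267 (Myh4).

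DESeq2's Wald test, run on all genes with a count, gave other calls for the heavy chains. It called Myh1 lower in anti-TGF-β with anti-PD-1 than in anti-TGF-β alone (adjusted p = 1.29e-28), the single gene of 31287 it called there (0.00320%). The counts behind it were 17 in tumor 48, 1 in tumor 43 and 0 in the other 8 mice. Without tumor 48 the call stood on 1 count against 0 (adjusted p = 5.70e-11), while edgeR without the filter gave an adjusted p of 0.688 for Myh1 in all 10 mice, and DESeq2 without tumor 52, which is in neither group, made no member call there.

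DESeq2 also called Myh4 lower with anti-PD-1 plus anti-GARP:TGF-β1 WT than with the latter alone (adjusted p = 0.0470, among 1.06% of genes called), and neither without tumor 42 nor without tumor 52, which is in neither group. In the other comparisons of 2 groups outside the choice it called none of the members to which it gave an adjusted p. Pvalb had none in any comparison of 2 treatment groups outside the choice. Myh2 had none in WT with anti-PD-1 against isotype and in FcD with anti-PD-1 against FcD. In WT with anti-PD-1 against WT alone, where Myh4 was called, Actn3, Myh1, Myh2, Tnnt3 and Pvalb had none. Over all genes it called 0% of genes for anti-TGF-β, for both formats of anti-GARP:TGF-β1 and for the WT format with anti-PD-1 against isotype, 0.0320% for FcD with anti-PD-1 and 0.444% for anti-TGF-β with anti-PD-1 against isotype. Against anti-PD-1 alone it called 0% for both anti-GARP:TGF-β1 combinations and 0.249% for anti-TGF-β, and 0.556% for FcD with anti-PD-1 against FcD alone. In the 2 comparisons of anti-TGF-β and anti-PD-1 with isotype or anti-PD-1, all 10 members had no adjusted p from DESeq2.

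The heavy chain counts lay mostly on one side of the library numbers. All 6 tumors with 10 or more heavy chain counts were among libraries 41 to 60, where Myh1, Myh2 and Myh4 had 980 counts in all, 165 without tumor 52, against 12 in libraries 61 to 80. Myh2 and Pvalb were at 0 in all 20 tumors of libraries 61 to 80, and Myh4 was read in 6 of 20 tumors against 2 of 20. The steady members had close medians in libraries 41 to 60 and 61 to 80. These were 1.10 and 1.03 CPM for Mylpf, 0.817 and 0.715 for Ckm and 0.514 and 0.499 for Actn3. Their fitted log2 fold changes (edgeR, libraries 61 to 80 over 41 to 60, tumor 52 included) were -0.45, -0.78 and -0.20 in the same order.

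In the edgeR fit with treatment group as a term, none of the 6 tested members was called between the library parts, where 1.68% of all genes were. Tumor 52, whose values chose the members, is in libraries 41 to 60. No tumor of libraries 61 to 80 had 10 counts of Myh4 or Atp2a1. Acta1 had 10 counts or more in 7 tumors of libraries 41 to 60 and in 1 of libraries 61 to 80. These genes thus passed the filter through the side where they were high. The direction of these values is therefore not independent of the choice. Acta1, Atp2a1 and Myh4 were lower in libraries 61 to 80 at an unadjusted p under 0.05 (12.5% of all genes), with log2 fold changes of -1.64, -1.24 and -4.19 and edgeR adjusted p of 0.353, 0.356 and 0.171. With 1 tumor left out, this number of members ran from 1 (without tumor 42) to 6 (without tumor 78). The share of all genes under the unadjusted threshold in those runs is not given here, so nothing is read from this range. Without the treatment term Acta1, Atp2a1, Ckm and Myh4 were called lower, where 1.75% of all genes were called. DESeq2, run with treatment group as a term, called no member among 1.71% of genes and gave Actn3 no adjusted p. Without tumor 52 and without the filter, 4 of 10 members (Myh1, Myh4, Pvalb and Tnnt3) were lower at an unadjusted p under 0.05, where 8.06% of all genes passed, and Acta1, Atp2a1 and Ckm were not. Left-out tumors change the calls as well: Myh1 was called without tumor 47 (1.89% of all genes) and Myh4 without tumor 78 (1.77%). Neither gene had 10 counts in any tumor of libraries 61 to 80, so these calls carry the same limit.

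Within libraries 41 to 60, the mean summed CPM of the members was 73.1 in 3 anti-PD-1 mice, 8.97 in 3 anti-TGF-β mice, 8.42 in 3 anti-GARP:TGF-β1 WT mice and 2.65 in 2 isotype mice. Within libraries 61 to 80 it was 2.88, 2.69, 3.83 and 3.43 in the same order, with 2, 2, 2 and 3 mice. The means of libraries 41 to 60 rest on few tumors, with medians of 8.42, 10.8, 2.97 and 2.65 CPM. In the same libraries the mean was 3.16 CPM with anti-GARP:TGF-β1 FcD and 4.66 with FcD and anti-PD-1. It was 2.99 with WT and anti-PD-1 and 2.93 with anti-TGF-β and anti-PD-1. In libraries 61 to 80 these means were 2.97, 2.14, 2.79 and 3.26 CPM. All 9 adipocyte genes were lower in libraries 61 to 80 at an unadjusted p under 0.05 without being called, and Krt5, Krt15, Krt8, Krt18, Epcam, Sox10 and Cnn1 were called higher there. Their part in the member values was not tested.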

How the data were processed

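RNA from 40 tumors was sequenced by the authors from TruSeq Stranded mRNA libraries. The submitters' processing notes name STAR 2.5.3a, SAMtools 1.6, HTSeq 0.9.1 and the GRCm38 build. The annotation release and the strand and multi-mapping settings of the counting are not given in the sources used here. The authors deposited raw counts per gene and tumor, with no normalization, and 0 columns were left out. Genes with at least 10 counts at the median library size (0.713 CPM) in 5 tumors were kept, 14760 in all. Counts were scaled by TMM and tested with edgeR 4.0.16 (quasi-likelihood, R 4.3.3), with all 8 groups in one fit and Benjamini-Hochberg adjustment over all genes. DESeq2 1.42.0 was an alternative. The fits were tested on simulated data. Lengths came from the GRCm38 annotation and promoters from RefSeq.

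The members and gene lists were chosen with earlier results of these data known. The text names every member, the 10 genes most like them by mean Spearman rho, the 3 genes of each list with the highest mean CPM, and defining markers at 0. Other genes (among them Myh8, Chrng, Fbxo32, Myod1, Myf6, Ddx3y and Xist) were named after their values were seen. One further list of host tissue genes is not reported here.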

Additional observations from a re-analysis of the deposited data

Results flagged for a closer look

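In groups of 5 mice, a tumor stands apart here when its gap to the nearest mouse exceeds 0.71 of the range of the group (Dixon's 95% value). This was so in 29 of 68 sets of 5 values, and chance flags about 1 in 20. The 2 cannot be compared, since 11 of the 29 are tumor 52, whose values chose the members, and the members rise in the same tumors. Where a gene was read in 1 mouse of a group only, the gap equals the range, so the flag was set in advance. This holds for Myh1, Myh2 and Myh4 in tumor 42 and for Myh4 in tumors 50 and 78. Another 20 sets whose highest tumor had 3 counts or fewer were not tested. All values are CPM.

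Tumor 52 (anti-PD-1) was apart for all 10 genes and for their sum of 207. It had 63.3 of Acta1, 37.7 of Myh4, 22.8 of Ckm, 20.004 of Mylpf, 17.9 of Atp2a1, 16.6 of Myh1, 15.4 of Tnnt3, 8.0 of Actn3, 3.86 of Pvalb and 1.93 of Myh2. Tumor 42 (anti-GARP:TGF-β1 WT) was apart for its sum of 19.8 and for 7 genes, with 5.69 of Acta1, 3.22 of Myh4, 1.87 of Atp2a1, 1.5 of Tnnt3, 1.20 of Myh1, 0.524 of Myh2 and 0.524 of Pvalb. Tumor 50 (anti-GARP:TGF-β1 FcD with anti-PD-1) was apart for its sum of 8.07, with 1.66 of Acta1, 1.06 of Tnnt3 and 0.980 of Myh4.

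Single values were high in tumor 48 (anti-TGF-β, Myh1 at 1.33), tumor 69 (anti-GARP:TGF-β1 WT with anti-PD-1, Acta1 at 1.32), tumor 55 (the same group, Tnnt3 at 0.360) and tumor 78 (isotype, Myh4 at 0.554). With anti-TGF-β and anti-PD-1, tumor 53 was low for Acta1 (0.00) and tumor 57 for Mylpf (0.519).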

How the results depend on the processing

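The number of members called by edgeR stayed at 0 under DESeq2 size factors, no filter, a fit that was not robust and library part as a covariate. The DESeq2 Wald test called 1 member in anti-PD-1 against isotype, which is the call the choice rests on and no separate result. Outside the choice it called 1 in anti-GARP:TGF-β1 WT with anti-PD-1 against WT alone (1.06% of all genes). It also called 1 in anti-TGF-β with anti-PD-1 against anti-TGF-β (0.00320%), still 1 without tumor 48. Between library parts, 4 members were called without the treatment term (1.75% of all genes), in a direction not independent of the choice, and Acta1 went to -3.69. The following log2 values are all of Acta1, and the runs without single tumors 52, 48 or 42 in DESeq2 or without the filter were chosen after seeing the data. Anti-PD-1 against isotype fell to 1.28 (no filter) and 1.29 (DESeq2) without tumor 52. WT with anti-PD-1 against WT turned to 1.00 in DESeq2 without tumor 42, and FcD with anti-PD-1 against FcD to -0.16 with library part as a covariate. The cause was not tested beyond these settings.

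Leaving out 1 mouse at a time gave 1.28 to 5.77 for anti-PD-1, -0.59 to 2.37 for WT, 1.40 to 2.38 for anti-TGF-β (lowest without tumor 48), -0.80 to 0.60 for WT with anti-PD-1 and -0.47 to 0.98 for FcD with anti-PD-1, all against isotype. It gave -6.39 to -1.92 for anti-TGF-β with anti-PD-1 against anti-PD-1, with 0 to 8 members called (8 without tumor 53, a direction set by the choice of the members), -2.86 to 0.94 for WT with anti-PD-1 against WT, -0.92 to 0.70 for FcD with anti-PD-1 against FcD, -3.01 to -2.02 for anti-TGF-β with anti-PD-1 against anti-TGF-β (-2.02 without tumor 48), and 0 to 1 members called between parts. Fits of only the groups compared left Acta1 untested, and DESeq2 was not run for the tests over several groups. No paired analysis was possible because replicate numbers only follow the order of the samples. Counts of 0 to 3 in most tumors limit what can be said of Myh1, Myh2, Myh4 and Pvalb.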
